A study of Rattus norvegicus with 10 samples.

Results

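The genes described here are the glucocorticoid receptor gene Nr3c1, 6 genes that the receptor is known to induce (Fkbp5, Tsc22d3, Zbtb16, Dusp1, Errfi1 and Cdkn1a) and the metallothionein gene Mt2A. Every probe set that the platform's gene table assigns to 1 of these 8 genes alone was taken. That gave 11 probe sets of 7 genes, out of 31042 probe sets in all, and Zbtb16 was not analysed here. The livers came from male rats aged 13 weeks, 1 array for each. The 5 N-group rats were kept for 30 days on a feed that held 30 wt% of instant noodle and drew 26% of its energy from fat (the seasoned diet, animals 1, 4, 7, 10 and 13). The 5 C-group rats ate the same diet without its seasonings (the control diet, animals 2, 5, 8, 11 and 14). Both groups were pair-fed about 60 g of diet per kg body weight and day under 12 h of light and 12 h of darkness, with free access to water, so the noodle, the fat and the amount fed were common to both. The question put by the design is what the seasonings change in the liver transcriptome.

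The glucocorticoid receptor sits in the cytosol with heat shock protein 90 and its cochaperones until corticosterone, the main glucocorticoid of the rat, binds it. It then enters the nucleus and acts on genes directly or through other factors. In liver it is known for raising gluconeogenesis and amino acid breakdown and for damping inflammation, and corticosterone itself follows a daily rhythm. Metallothioneins are small cysteine-rich proteins that bind zinc and copper. Their genes are induced by glucocorticoids and, through the zinc-sensing factor Mtf1, by metals.

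The metallothionein promoters are shown because Mt2A had the lowest log2 difference of the 11 probe sets and its neighbour Mt1 is the paralog it is compared with below. The 250 bases before each start are from RefSeq (GRCr8), on the minus strand, at chr19:10838709-10838958 for Mt2A and chr19:10832976-10833225 for Mt1. The starts lie 5733 bases apart. Capitals mark each match to the metal response core TGCNCNC on either strand. 
Mt2A: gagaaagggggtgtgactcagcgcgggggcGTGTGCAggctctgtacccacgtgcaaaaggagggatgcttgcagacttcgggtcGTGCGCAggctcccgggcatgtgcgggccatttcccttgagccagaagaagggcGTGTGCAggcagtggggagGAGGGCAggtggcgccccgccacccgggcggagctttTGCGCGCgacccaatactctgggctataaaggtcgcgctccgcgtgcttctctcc
Mt1: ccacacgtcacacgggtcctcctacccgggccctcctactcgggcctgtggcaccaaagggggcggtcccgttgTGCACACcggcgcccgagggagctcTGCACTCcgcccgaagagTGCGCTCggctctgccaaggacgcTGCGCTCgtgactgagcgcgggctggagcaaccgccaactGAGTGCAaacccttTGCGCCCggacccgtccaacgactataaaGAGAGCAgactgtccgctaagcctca

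Mt2A held 5 such matches and Mt1 held 7. Of 33469 RefSeq promoter windows of 300 bases (250 before the start and 50 after it), 0.669% held 5 or more and 0.108% held 7 or more, while 49.6% held at least 1. The glucocorticoid palindrome GNACANNNTGTNC (in 0.439% of windows) and its shorter site TGTTCT (in 20.7%) were searched on both strands as well, and 0 of the 11 windows of the 7 measured genes and Mt1 held either. That says only that these letters are not in these windows.

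The unit throughout is the deposited log2 signal, and levels are compared between livers for 1 probe set and not between probe sets. Of all probe sets, 87.0% hardly differed between livers in the deposited values, with an SD at or under 0.01 over the 10 livers. They are called near-constant and the other 4050 varying. The array medians lay between 6.47 and 6.48. Hepatocyte markers had a median signal of 13.4, with Alb at 14.34 in both diets, while 6 of 7 brain markers, examined because the extraction text speaks of brain, lay between 5.97 and 6.47 and Mbp was at 7.38 in seasoned and 7.15 in control livers. Marker lists of Kupffer cells, leukocytes, stellate cells, endothelium, bile duct and red cells had 0 called genes. No probe set of the 31042 was called in this comparison, so that count says nothing on the share of cell types. At an unadjusted p under 0.05 by limma the leukocyte list had 2 (Cd8a and S100a8, higher in seasoned livers and near-constant). By the same rule the hepatocyte list had 1 (Apoa1, varying and higher in seasoned livers by 0.23 ± 0.07). The other marker lists, brain included, had 0. In bulk liver, fewer cells of a type and less RNA per cell cannot be told apart. The sample codes carry the letter A for every seasoned liver and B for every control. If these letters are array rows, row and diet cannot be told apart.

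None of the 11 probe sets passed the comparison of the diets, and neither did any other (limma, adjusted p under 0.05 over all 31042, 0.0% called). The smallest adjusted p among the 11 was 0.850, for Errfi1, and the smallest of all was 0.494. At an unadjusted p under 0.05, 2 of the 11 were lower with the seasoned diet (Errfi1 and Mt2A), against 1.92% of all probe sets, and 0 were higher, against 2.56%. In a fit of the 4050 varying probe sets alone, 0 of 9 members passed (0.321% called) and 3 of 9 had an unadjusted p under 0.05, against 12.9%. Of the 9 varying members, 7 had negative differences, against 46.7% of varying probe sets. Groups did not overlap in 0 of the 11, against 0.77% of all.

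**Figure D1:**
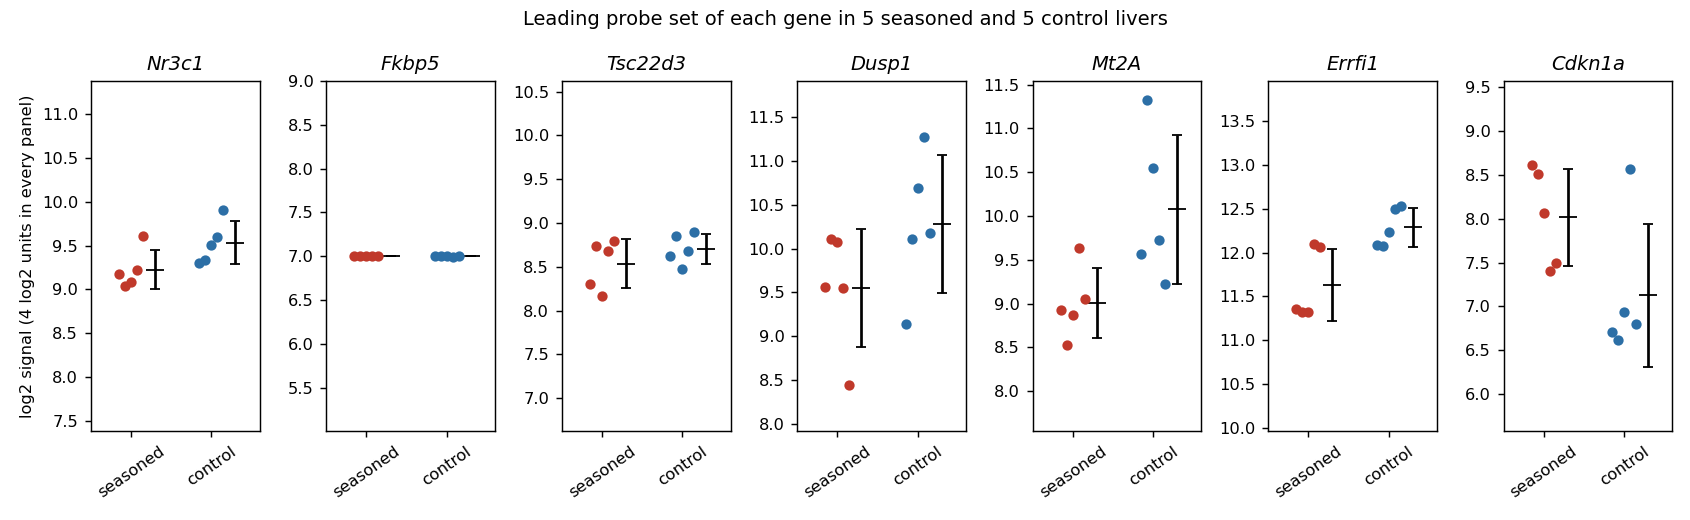
Log2 signal of the leading probe set (the one with the highest mean) of each gene in seasoned (red, left) and control (blue, right) livers, 1 point per liver, with mean and SD beside them (5 livers per group). Every panel spans the same range. Fkbp5 is flat, Mt2A and Errfi1 lie mostly lower in seasoned livers, and control animal 11 is the single high control for Cdkn1a at 8.57.

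Nr3c1 codes for the receptor. Its leading probe set, 1368221_at, read 9.18, 9.04, 9.09, 9.22 and 9.61 in seasoned animals 1, 4, 7, 10 and 13. In control animals 2, 5, 8, 11 and 14 it read 9.30, 9.34, 9.51, 9.60 and 9.91. Seasoned livers other than animal 13 lay below every control, and control animal 14 lay above every seasoned liver. The means were 9.23 ± 0.22 in seasoned and 9.53 ± 0.25 in control livers (SD, n = 5 each), a difference of -0.31 ± 0.14 (SE) or 0.809-fold, with an unadjusted p of 0.0665 and an adjusted p of 0.9997 by limma. The other probe set, 1368222_at, read 6.38 ± 0.18 in seasoned and 6.54 ± 0.22 in control livers (difference -0.15 ± 0.12, or -0.081 without control animal 14). Its level was near the median of all values, 6.48, and both probe sets put seasoned animal 13 and control animals 11 and 14 highest.

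Fkbp5 codes for the cochaperone FKBP51, which lowers the receptor's affinity for hormone and is itself induced by it. Both of its probe sets were near-constant. In seasoned livers 1388901_at lay between 7.0002 and 7.0018, and in control livers between 6.9971 and 7.0029. The other, 1380611_at, was at 6.64 in every liver. A gene in this class has no measurable difference in the deposited values, and whether its RNA differed before the authors' processing was not tested.

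Tsc22d3 codes for GILZ, a leucine zipper protein through which glucocorticoids act against inflammation. Its probe set read 8.31, 8.74, 8.16, 8.68 and 8.79 in seasoned livers and 8.63, 8.85, 8.48, 8.68 and 8.89 in control livers, in the order of animals used for Nr3c1. The ranges overlapped in part, with seasoned animals 1 and 7 below the lowest control and control animals 5 and 14 above the highest seasoned liver. The difference was -0.17 ± 0.14 (unadjusted p = 0.271 by limma). It was -0.076 without seasoned animal 7 and -0.11 without seasoned animal 1.

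Dusp1 codes for a phosphatase that switches off the stress-activated MAP kinases. Its leading probe set, 1368146_at, read 9.56, 10.11, 10.08, 9.55 and 8.44 in seasoned livers and 9.14, 10.11, 10.69, 11.27 and 10.18 in control livers. The widest values lay at the ends of both diets, with seasoned animal 13 lowest and control animal 11 highest. The difference was -0.73 ± 0.45 by this probe set and -0.71 ± 0.46 by 1368147_at (unadjusted p of 0.142 and 0.164 by limma). Without control animal 11 these were -0.48 and -0.43, without seasoned animal 13 they were -0.45 and -0.48, and without control animal 2 they were -1.02 and -1.04.

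Mt2A read 8.93, 8.53, 8.87, 9.64 and 9.05 in seasoned livers and 9.56, 11.33, 10.54, 9.73 and 9.22 in control livers. Control animals 5 and 8 stood highest, and seasoned animal 10 was the only seasoned liver above the lowest control. The seasoned mean was 9.004 ± 0.40 and the control mean 10.08 ± 0.85 (SD, n = 5 each). The difference was -1.07 ± 0.41, or 0.475-fold, with an unadjusted p of 0.0295 and an adjusted p of 0.9997 by limma, and an exact two-sided permutation p of 0.0238, unadjusted, over 252 assignments (the smallest possible being 0.00794). A difference of this size or more, in either direction, was seen in 26 probe sets, 0.0838% of all. Near-constant probe sets, 87.0% of all, cannot reach it, so all 26 were among the 4050 varying ones. The SD of Mt2A over the 10 livers was itself above that of 99.2% of varying probe sets. Without control animal 5 it was -0.76. With the arrays centred on their varying probe sets, Mt2A and Errfi1 passed over all probe sets (adjusted p of 0.0347 and 0.0363 by limma), a setting under which 255 of 31042 probe sets did. All 255 were varying ones. With array median centring or repeated quantile normalization 0 members passed.

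Mt1, the neighbouring metallothionein gene and no member of the set, read 6.89, 7.31, 6.80, 6.99 and 6.49 in seasoned livers and 7.43, 7.83, 7.13, 7.10 and 7.12 in control livers. Seasoned animal 4 was the only seasoned liver above the lowest control, and control animal 5 was the highest for both metallothioneins. Its difference was -0.43 ± 0.19 (unadjusted p = 0.0519, adjusted p = 0.9997 by limma). Metallothionein transcripts are alike in sequence, and how far the probe sets of Mt1 and Mt2A read one another's RNA was not tested. A further probe set, which the platform's table assigns to Mt1 together with other genes, was not used here.

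Errfi1 codes for MIG6, a feedback inhibitor that binds the EGF receptor and that glucocorticoids and growth factors induce. Its probe set read 11.35, 11.32, 11.32, 12.10 and 12.06 in seasoned livers and 12.09, 12.08, 12.23, 12.50 and 12.53 in control livers. Seasoned animals 1, 4 and 7 stood well apart from all controls, animal 13 lay just below the lowest control, and animal 10 just above it. The means were 11.63 ± 0.41 in seasoned and 12.29 ± 0.22 in control livers (SD, n = 5 each), a difference of -0.66 ± 0.20 or 0.634-fold, with an unadjusted p of 0.0111 by limma and an exact permutation p of 0.0238, unadjusted.

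Cdkn1a codes for p21, an inhibitor of cyclin-dependent kinases that p53 and glucocorticoids induce, and it was the only one of the 6 varying genes with a positive difference. Its leading probe set, 1388674_at, read 8.61, 8.51, 8.07, 7.41 and 7.501 in seasoned livers and 6.71, 6.61, 6.94, 8.57 and 6.80 in control livers. Every control other than animal 11 lay below every seasoned liver, and animal 11 was exceeded by seasoned animal 1 alone. The difference was 0.89 ± 0.43, or 1.85-fold (unadjusted p = 0.0702, adjusted p = 0.9997 by limma), and 0.75 ± 0.41 by 1387391_at. Without control animal 11 it was 1.25 and 1.07 in turn. In the varying probe sets alone, without this liver, 1388674_at passed with an adjusted p of 0.0452 by limma, among 84 of 4050 probe sets that did. That fit was added after seeing the data, and the liver left out is the 1 control that runs against the difference. The other probe set, 1387391_at, passed under no setting (smallest adjusted p of 0.107 by limma).

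Control animal 11 also stood apart in the clock genes. Dbp, a clock output factor with a strong daily rhythm, read 5.97, 5.94, 6.03, 7.05 and 6.94 in seasoned livers and 9.08, 9.43, 9.32, 7.28 and 9.09 in control livers, the value of animal 11 being 7.28. Bmal1, a clock activator, read 6.92 to 7.74 in seasoned livers, 6.90 in control animal 11 and 6.08 to 6.24 in the other controls. The part of these clock differences in the values of Cdkn1a and Dusp1 was not tested.

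**Figure D2:**
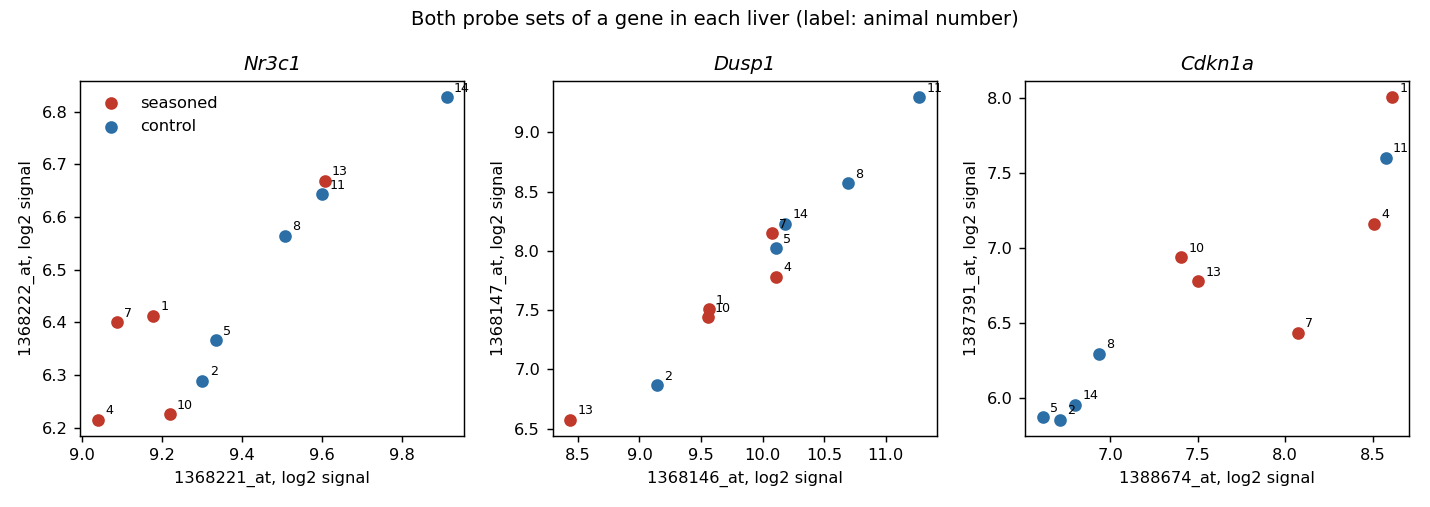
Log2 signal of both probe sets of Nr3c1, Dusp1 and Cdkn1a against each other, 1 point per liver, seasoned in red and control in blue, with animal numbers. For Dusp1 both probe sets put seasoned animal 13 lowest and control animal 11 highest, and for Cdkn1a control animal 11 lies among the seasoned livers on both axes.

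Earlier results of these data had parted the animals by number, with 3 seasoned and 2 control livers in animals 1 to 7, and 2 seasoned and 3 control livers in animals 8 to 14. The parting was chosen as the one with the most genes between its sides, and no label gives a batch along it. Array position rises with animal number within each diet, so the parting also splits each diet by position. Errfi1 did not overlap between the diets within either set, though it did over all 10 livers. With 2 or 3 livers on a side this arises readily. Within animals 1 to 7 the leading probe sets of Nr3c1, Mt2A and Cdkn1a did not overlap either. The share of all probe sets with no overlap within both sets was not counted. In animals 1 to 7 the seasoned livers read 11.32 to 11.35 and the controls 12.08 and 12.09. In animals 8 to 14 the seasoned livers read 12.06 and 12.10 and the controls 12.23 to 12.53. The differences were -0.75 and -0.34, and -0.55 ± 0.09 with the set as a block. That blocked value passed among varying probe sets (adjusted p = 0.0436 by limma) and not over all (adjusted p = 0.403). Within animals 1 to 7 alone Errfi1 passed over all probe sets (adjusted p = 0.0337 by limma), on 5 livers. The parting was picked from these same data, so these p-values are not those of a block set in advance. The fit that joins varying probe sets with the block was also added after seeing the data.

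For Nr3c1 the difference was -0.22 in animals 1 to 7 and -0.26 in animals 8 to 14. Its mean over both diets was 9.57 in animals 8 to 14 and 9.19 in animals 1 to 7, sets that hold the diets in unequal numbers. Errfi1 averaged 12.29 in animals 8 to 14 and 11.63 in animals 1 to 7. Mt2A differed by -1.67 and -0.49 within the sets. For Dusp1 (1368146_at) the difference was 0.29 in animals 1 to 7 and -1.72 in animals 8 to 14, and for Cdkn1a (1388674_at) it was 1.73 and 0.02. Whether the diet difference itself differed between the sets was not tested. Tsc22d3 differed by -0.34 and 0.05.

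**Figure D3:**
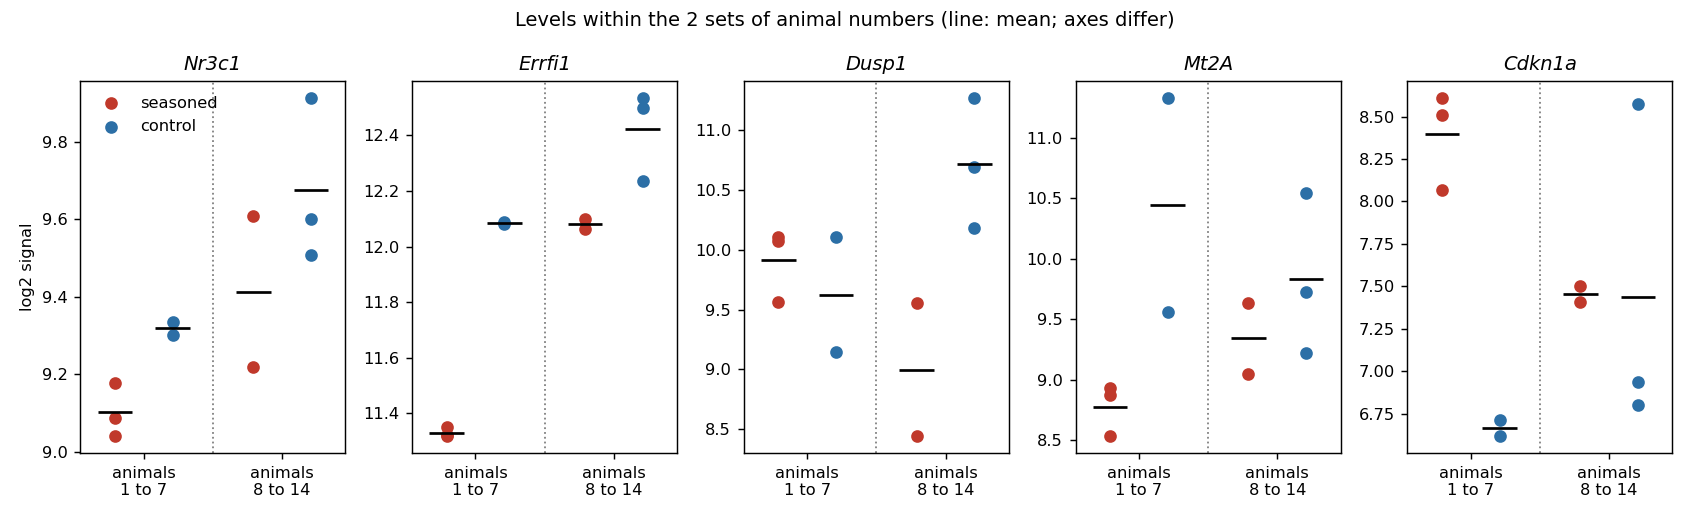
Log2 signal of 5 genes by diet (seasoned red, left, and control blue, right) within animals 1 to 7 and animals 8 to 14, 1 point per liver, with lines at the means. Errfi1 is lower in seasoned livers within both sets, Dusp1 in animals 8 to 14, and the Cdkn1a means differ by 1.73 in animals 1 to 7 and by 0.02 in animals 8 to 14, where control animal 11 is the highest.

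**Figure D4:**
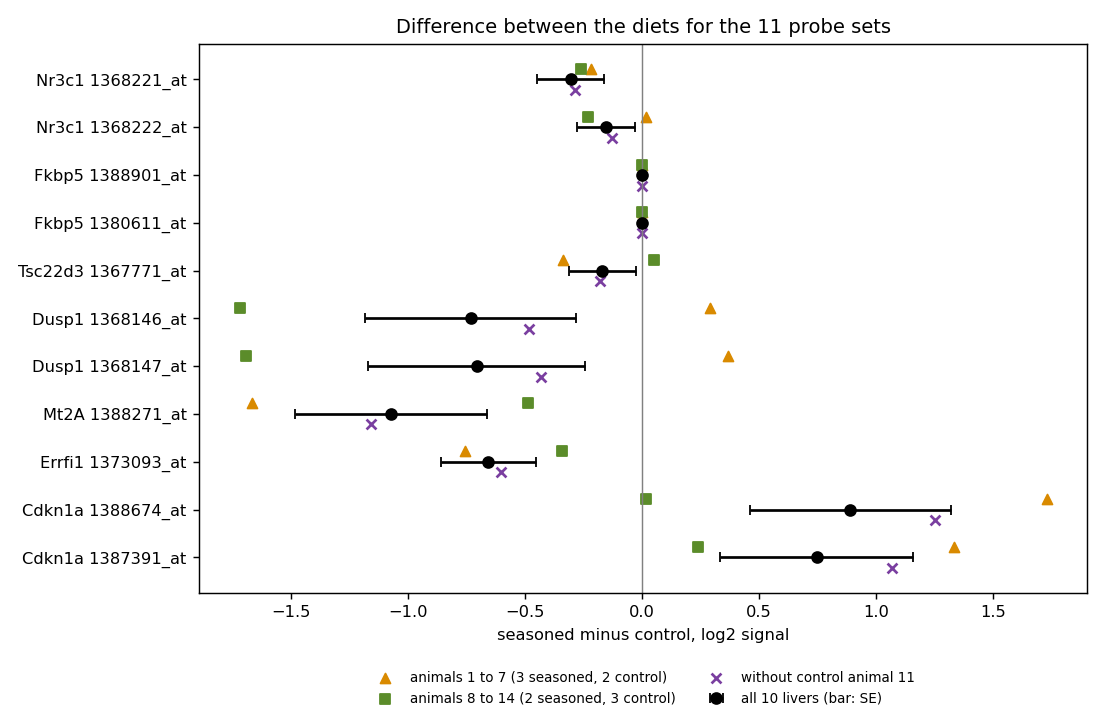
Seasoned minus control log2 signal of the 11 probe sets over all livers (black, with SE), within animals 1 to 7 (triangles), within animals 8 to 14 (squares) and without control animal 11 (crosses). Errfi1 and Mt2A stay below 0 in each, from -0.34 to -0.75 and from -0.49 to -1.67, while Dusp1 lies on both sides of 0.

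Genes around the receptor were read from a list of 18, of which 15 were measured and 9 varied. Of the 15, 0 passed, and 2 were higher at an unadjusted p under 0.05, against 3.0% of all 14217 genes. Only 2613 of the 14217 genes varied, so shares over all genes are a low background for lists that vary more. In the fit of varying probe sets alone, 268 of 4050 were higher and 253 lower at an unadjusted p under 0.05 by limma. Fkbp4, the cochaperone FKBP52 that favours hormone binding, read 8.60 ± 0.29 in seasoned and 8.14 ± 0.17 in control livers (SD, n = 5 each). Its difference was 0.46 ± 0.15 (adjusted p = 0.871 by limma). Hsd11b2, the enzyme that inactivates corticosterone, differed by 0.49 ± 0.20, and Hsd11b1, which regenerates it, by 0.11 ± 0.06. Of the 9 varying genes 8 had positive differences, with a median of 0.12, against 0.02 over all varying genes. Corticosteroid-binding globulin (Serpina6) differed by 0.07 ± 0.13, and the mineralocorticoid receptor (Nr3c2) was near-constant.

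A list of 24 further glucocorticoid-induced liver genes had 23 measured members, 17 of them varying. Of the 23, 0 passed, and shares over all genes are a low background here too. At an unadjusted p under 0.05, 5 were lower (against 1.79% of all genes, and 253 of 4050 varying probe sets in their own fit). By the same rule 1 was higher (against 3.0%, and 268 of 4050). The lower ones were Klf9 (-0.93 ± 0.15), a transcription factor, Sds (-2.03 ± 0.45), serine dehydratase, Cebpb (-0.47 ± 0.13), a factor of the acute phase and gluconeogenesis, Tdo2 (-0.19 ± 0.07), tryptophan dioxygenase, and Pck1 (-0.17 ± 0.07), the gluconeogenic carboxykinase. Bcl6, a transcriptional repressor, was the higher one at 1.40 ± 0.54. The median over the 17 was -0.06, with 11 negative and 6 positive differences. Klf9 passed among varying probe sets alone (adjusted p = 0.044 by limma), and that call was lost on leaving out any of 7 of the 10 livers (all but seasoned animal 10 and control animals 2 and 11), with adjusted p from 0.00915 to 0.156 over the 10. It read 9.31, 9.08, 8.87, 9.42 and 9.07 in seasoned and 9.96, 10.11, 10.49, 9.76 and 10.09 in control livers, with no overlap. Tat, the tyrosine aminotransferase often used as a glucocorticoid readout in liver, differed by -0.24 ± 0.22, and Sgk1, a kinase induced by corticosteroids, by 0.05 ± 0.31. Per1, a direct target of the receptor, was near-constant. The list was chosen with earlier results of these data known, and Tdo2, Pck1, Bcl6, Tat, Sgk1, Serpina6 and Nr3c2 are genes named with their values already seen.

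**Figure D5:**
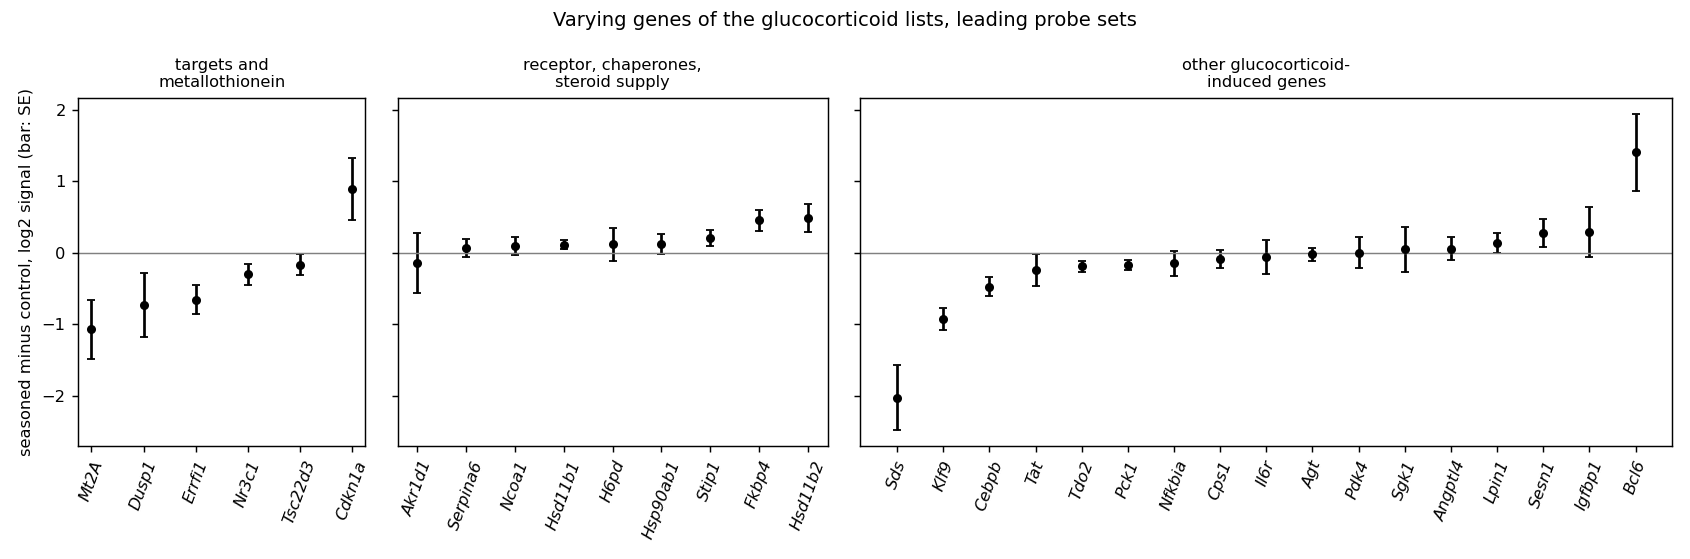
Seasoned minus control log2 signal with SE for the varying genes of 3 lists, ordered by value within each. Most genes of the induced list lie near 0, with Sds at -2.03 and Bcl6 at 1.40 at its ends, and Fkbp4 and Hsd11b2 are the highest of the receptor list.

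Of 14 measured metallothionein and zinc genes 3 varied, namely Mt1, the zinc importer Slc39a8 (0.07 ± 0.10) and heme oxygenase Hmox1 (-0.04 ± 0.09), and the metal sensor Mtf1 was near-constant. In this list 0 genes passed, and the near-constant zinc importer Slc39a10 had an unadjusted p under 0.05 with a difference of 0.00078. Of 15 p53 targets and cell cycle genes, 0 passed and 0 had an unadjusted p under 0.05. Ccnd1, cyclin D1, differed by -0.43 ± 0.21, Fas, a death receptor, by 0.19 ± 0.15, and Sesn2, a stress-induced sestrin, by 0.23 ± 0.18. The p53 feedback ligase Mdm2 differed by -0.0094 ± 0.12, and the kinase inhibitor Cdkn1b by 0.0037 ± 0.14. Of 16 genes of EGF receptor signalling and MAP kinase feedback, 0 passed and 0 had an unadjusted p under 0.05. Egfr itself differed by 0.14 ± 0.20 and the phosphatase Dusp6 by -0.08 ± 0.34, while Dusp5 differed by -0.0095 ± 0.0090 and Hbegf and Dusp10 were near-constant. Of 14 genes of the TSC22 and FKBP families, 0 passed and 0 had an unadjusted p under 0.05, with Tsc22d1 at 0.35 ± 0.25 and Fkbp10 and Fkbp2 near-constant. Of 16 clock genes 0 passed over all probe sets, and 4 were higher and 7 lower at an unadjusted p under 0.05, among them Dbp (-2.46 ± 0.46), Bmal1 (1.14 ± 0.21) and Clock (0.37 ± 0.07), against 3.0% and 1.79% of all genes. Since 15 of the 16 varied, a nearer background is 268 higher and 253 lower of 4050 in the fit of varying probe sets. It is not a matched one, as it counts probe sets and not genes, by another fit than that of the 16. Dbp passed among varying probe sets alone (adjusted p = 0.0477 by limma), and that call was lost on leaving out any of 8 of the 10 livers (all but seasoned animal 10 and control animal 11). Slc39a8, Hmox1, Mtf1, Mdm2, Cdkn1b, Egfr and Dusp6 are genes named with their values already seen.

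Likeness to each varying member was measured as Pearson's r over the 10 livers, after centring each diet on its mean, across 2612 other varying genes. With so many genes and 10 livers, high values arise readily, and r is given as a description. The centring takes the diet difference out of r, so a like gene can differ between the diets in the other direction. Nr3c1 was most like Hdac2 (r = 0.966), a histone deacetylase, then Serp1 (0.959) and Lin7a (0.941). Without the 2 livers farthest from the median of Nr3c1 these were 0.870, 0.939 and 0.846. Errfi1 was most like Rpa3 (0.918), Eef1b2 (0.881) and Hao1 (0.874), and Tsc22d3 like Tob2 (0.844), Tpd52l1 (0.794) and Sqor (0.776). Without 2 livers Sqor was at 0.513, and the others of these 6 lay between 0.705 and 0.951.

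Dusp1 was most like Arhgef3 (0.955), Fas (0.922) and Greb1l (0.908), which were 0.860, 0.801 and 0.786 without the 2 farthest livers. Between the diets Arhgef3 differed by -0.36, in the direction of Dusp1, and Fas and Greb1l by 0.19 and 0.31, in the other. Mt2A was most like Pdzph1 (0.926), Tm7sf2 (0.857) and Hsd17b7 (0.851), the last 2 being enzymes of cholesterol synthesis, and these were 0.802, 0.632 and 0.613 without the 2 farthest livers. Between the diets Pdzph1 differed by -0.16, in the direction of Mt2A, and Tm7sf2 and Hsd17b7 by 0.56 and 0.31, in the other. Cdkn1a was most like Bmal1 (0.896), the intermediate filament gene Vim (0.876) and the p53 target Ccng1 (0.876). Without the 2 farthest livers these were 0.822, 0.488 and 0.780, so that Vim was far less like it, and without control animal 11 alone they were 0.836, 0.638 and 0.858.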

How the data were processed

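Total RNA (100 ng per sample) of 10 livers was labelled with biotin and read on 1 array each, per the labels' protocols, whose extraction text speaks of brain while the tissue is labelled liver. The authors deposited 1 log2 signal per probe set and array. The summary method, the normalization and the genome build are not given in the sources used here, and no detection calls or scanner intensities were used, so precision is limited by the number of arrays. The table has 31099 probe sets, and its 57 controls were not used. The platform's gene table gave 20826 of the rest 1 gene, 436 several and 9780 none, and 20758 were matched by gene ID to RefSeq (GRCr8), used for symbols and promoters.

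Seasoned and control livers were compared with limma 3.58.1 under R 4.3.3 (lmFit, eBayes, two-sided) on the deposited log2 values of 31042 probe sets, with Benjamini-Hochberg adjustment over all of them. The fit was tested on simulated data. Single probe sets were also tested by exact permutation of the livers, unadjusted. The titles number the animals separately, so p-values measure the spread between rats. The members and lists were chosen with earlier results of these data known. The rule named all member probe sets, in each list the 3 genes of smallest p, and the 3 genes most like each varying member. Alternatives were fits on varying probe sets, other probe set rules, a filter on dim probe sets, repeated normalization and centring, other variance models, array position, animal number, animal-number sets and assumed pairs as terms, and leaving out each liver. Fits that combine varying probe sets with another choice were added after seeing the data. Replicate numbers are not shared between the diets.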

Additional observations from a re-analysis of the deposited data

Results flagged for a closer look

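In 64 groups of 5 livers (32 probe sets of members and named genes in each diet) a liver far from the others of its diet was looked for by Dixon's ratio of its gap to the group's range. There were 5 such groups, where chance gives about 3.2 (1 in 20). Control animal 11 was high for both probe sets of Cdkn1a, with a ratio of 0.8365 for 1388674_at (8.57) and 0.7486 for 1387391_at (7.60). The same liver was low for Dbp (ratio 0.8336, level 7.28) and high for Bmal1 (ratio 0.8058, level 6.90). Seasoned animal 10 was high for the near-constant probe set of the transporter Slc30a10 (ratio 0.91, level 8.77), a gap far smaller than any difference given for a varying gene.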

How the results depend on the processing

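Of 341 member differences under alternatives, the near-constant Fkbp5 aside, 332 kept their direction and side of the threshold, 5 passed it and 4 reversed. Many settings leave the difference itself unchanged, such as fits of fewer probe sets, other variance models or assumed pairs. The fits of varying probe sets without 1 liver repeat the differences of the fits over all probe sets without it. Kept direction was fixed in advance in such settings, so the 332 do not measure stability. The reversed ones were Nr3c1 1368222_at (0.015) and Dusp1 (0.29 and 0.37) within animals 1 to 7, and Tsc22d3 within animals 8 to 14 (0.053). Fkbp5 1388901_at reversed with centring on varying probe sets (-0.0016). Fkbp5 1380611_at reversed with repeated quantile normalization (-9.8e-05), that centring (-0.0028), the set as a block (-4.8e-06), within animals 1 to 7 (-0.00041) and without 1 liver (range -0.00012 to 0.00015 over the 10).

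Members passing the test numbered 0 in the comparison of all livers, 2 with centring on varying probe sets, 1 within animals 1 to 7, 1 with varying probe sets and the set as a block, and 0 to 1 with varying probe sets without 1 liver (1 without control animal 11). Probe sets passing numbered 0, against 13 with varying probe sets only, also with trended and robust variance, 255 with centring on varying probe sets, 4 within animals 1 to 7, 22 with varying probe sets and the set as a block, 25 with animal number instead, and 3 with assumed pairs. Leaving out 1 liver gave 0 to 10, and 0 to 84 with varying probe sets, both highest without control animal 11. With varying probe sets it was also 21 and 8 without seasoned animals 10 and 13, and 18, 3 and 2 without control animals 2, 5 and 8. The cause was not tested. The diets share no replicate number, and the labels do not say which rats were fed as pairs. Neighbouring numbers were therefore only assumed to be pairs, and their deviations correlated at 0.195, 0.152, 0.116, -0.0064 and 0.186. The assumed partner was the best correlated control for seasoned animals 1 and 13, and not for seasoned animals 4, 7 and 10. With these assumed pairs as a block 0 members passed. The adjusted p by limma over all probe sets was 0.847 for both Nr3c1 1368221_at and Errfi1. Nr3c1 1368221_at differed by -0.31 ± 0.05 and was lower in 5 of 5 pairs (unadjusted p = 0.00228 by limma). Errfi1 was lower in 5 of 5 (unadjusted p = 0.00132 by limma). Mt2A and Mt1 were lower in 5 of 5 too, and the share of all probe sets that were was not counted. With 5 livers per diet and no scanner intensities, signal over background could not be weighed, and small differences of dim probe sets were not detectable.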
